A study of Mus musculus with 23 samples.

Results

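The 81 genes described here encode subunits of the mitochondrial respiratory chain and of ATP synthase, measured in the hypothalamus of obese mice given celastrol or its vehicle. They were chosen by symbol, not by level: genes named Ndufa, Ndufb, Ndufc, Ndufs or Ndufv with a number, the genes Sdha to Sdhd, those beginning with Uqcr, those of the Cox4 to Cox8 families and those beginning with Atp5. They are 81 of 18702 genes with a probe set naming that gene alone: 35 in complex I, 4 in complex II, 8 in complex III, 17 in complex IV and 17 in complex V. Ndufa4 is counted with complex I by its name, although textbooks now place its protein in complex IV. Of 87 protein-coding genes that fit these names in RefSeq, 6 had no such probe set and were not analysed here. Subunits encoded in mitochondrial DNA were not analysed here either.

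Complexes I and II pass electrons from NADH and succinate to ubiquinone, complex III passes them on to cytochrome c, and complex IV, cytochrome c oxidase, hands them to oxygen. Complexes I, III and IV pump protons out of the matrix, and complex V, ATP synthase, lets them back to make ATP. Neurons depend on this pathway for most of their ATP. Nuclear genes of the chain are known targets of the factors NRF1 and GABP, which the coactivator encoded by Ppargc1a assists.

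All animals were male db/db mice, which carry a leptin receptor mutation and become obese and diabetic, and no lean group is among the arrays used here. They were 8 weeks old and received chow for 2 weeks. Celastrol, a plant triterpenoid, or DMSO was injected intraperitoneally over 6 h, 1 day or 4 days, with DMSO at 25 µl per day, so the later groups may have had more injections, which cannot be told apart from time. For the 6 h group the labels state 250 µg/kg of celastrol, and the sources used here give no dose for the later groups. Each vehicle group had 4 arrays, the 6 h celastrol group had 3, and the 2 later celastrol groups had 4 each. The arrays of a group are labelled biological replicates, without saying whether each holds 1 animal or a pool, so the p-values measure the spread between these samples. Values are log2 expression per probe set, and a level is compared only with the same gene's level on other arrays. In whole tissue, fewer cells of a type and less RNA per cell cannot be told apart.

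The mean of 10 hypothalamic markers lay between 10.92 and 11.21 over the arrays and that of 10 neuronal markers between 12.25 and 12.37. These ranges are given for context and do not by themselves identify the tissue. The mean of 7 measured pituitary markers ranged from 6.99 to 9.34, and Prl, a pituitary hormone gene, lay above 9 on 4 arrays, all from vehicle mice. For the median subunit gene, each bound of the 95% confidence interval of a log2 difference between treatments lay 0.160 from the estimate at 6 h and 0.148 from it at both later times.

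One array stood apart in these genes before any treatment was compared. On vehicle array 3 at 6 h, the mean over the 81 genes was 11.24, against 10.80 to 10.93 on the other 22 arrays. The other vehicle arrays at 6 h stood at 10.88, 10.86 and 10.84. All 5 complexes took part. Complex I stood at 11.12 on this array against 10.64 to 10.79 on the others, complex II at 11.41 against 11.12 to 11.30, and complex III at 11.54 against 10.97 to 11.14. Complex IV stood at 10.40 against 10.13 to 10.23, and complex V at 12.12 against 11.63 to 11.77.

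**Figure D1:**
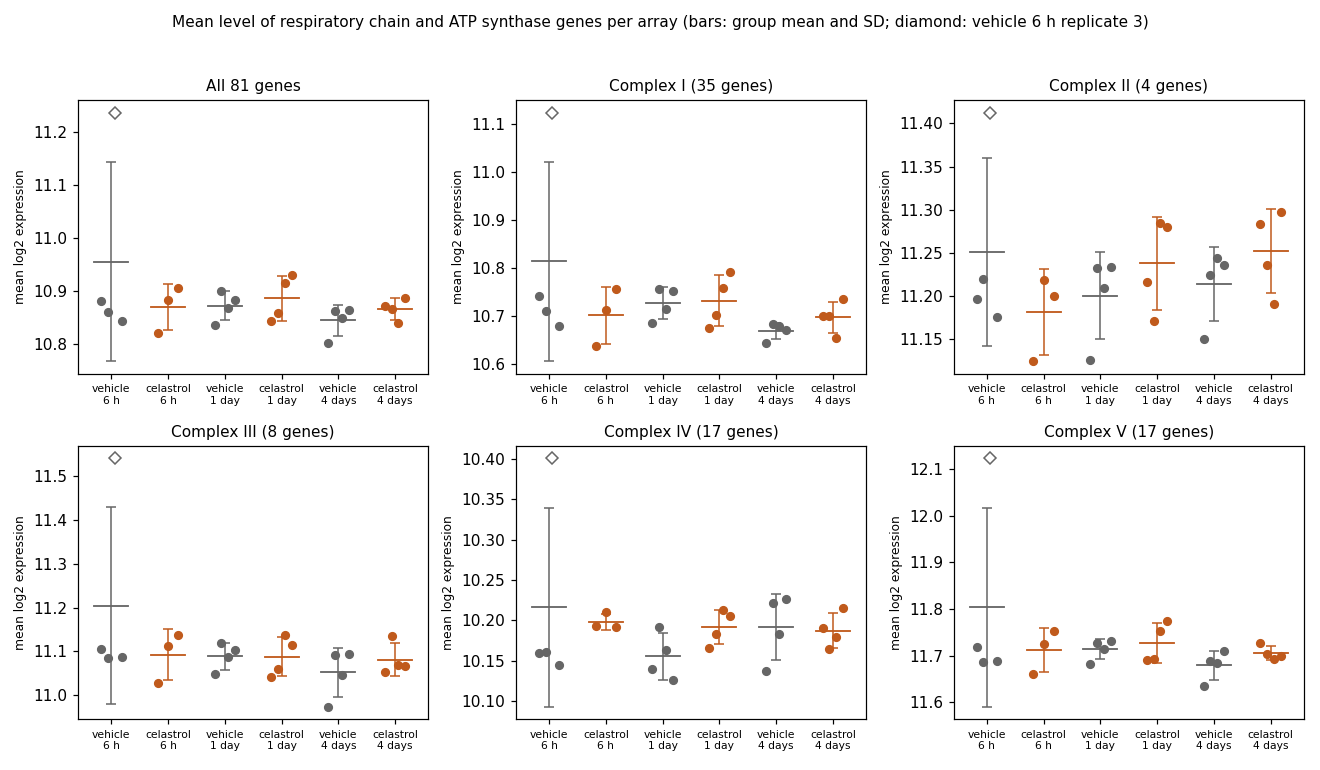
Mean log2 expression (vertical axis) of all 81 genes and of each complex on each of the 23 arrays, by group (horizontal axis; grey vehicle, orange celastrol); horizontal bars are group means and error bars SD. The diamond, vehicle array 3 at 6 h, lies above all other arrays in every panel, at 11.24 for all 81 genes, while the other 22 arrays lie between 10.80 and 10.93.

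That array held the highest of the 23 values for 62 of the 81 genes (76.5%) and the lowest for 0. Over all genes it was highest for 14.5% and lowest for 3473 of 18702. The other 22 arrays were each highest for 1.2% to 9.49% of all genes and lowest for 343 to 1453. This array was thus the most extreme over all genes too. Its excess over the mean of the other 22 arrays had a median of 0.32 over the 81 genes and of -0.03 over all genes. The excess passed 0.3 in 43 of the 81 genes (53.1%), against 6.6% of all genes. These counts describe an array picked out for its values and carry no test.

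By its medians, the excess was uneven between the parts of complex V and alike between those of complex I. In complex V, the subunits of the peripheral stalk and of the membrane part other than the c ring had a median excess of 0.56. All 9 were highest on this array. The F1 part, the catalytic head together with the central stalk genes Atp5c1, Atp5d and Atp5e, had a median excess of 0.09 over 5 genes. Its genes ran from -0.02 for Atp5d to 0.61 for Atp5e, and 3 were highest on this array. The c ring, which rotates as protons pass, had 0.26 over 3 genes, 2 of them highest. In complex I, the 8 genes of the NADH-oxidising arm were all highest on this array, with a median of 0.35 (0.21 to 0.85). The ubiquinone-reducing arm had 0.35 (-0.01 to 0.76, 5 of 7 highest) and the other accessory subunits 0.34 (-0.01 to 0.96, 13 of 18 highest). Ndufa4, with an excess of 1.00, and Ndufa4l2, with -0.16, were placed in none of these parts. Complex III, whose 8 genes were all highest there, had 0.53, and complex II, which also works in the citric acid cycle, had 0.21 over 4 genes. The 19 measured subunits listed here as catalytic and core had a median excess of 0.27, and 15 were highest on this array. For complex IV that list holds Cox4i1, Cox5a and Cox5b, which are not its catalytic core. That core is encoded in mitochondrial DNA and was not analysed. The other 54 subunits of general distribution had 0.44, with 46 highest. The 8 isoforms of limited tissue distribution, such as the testis form Cox6b2 and the heart and muscle form Cox6a2, had 0.0016.

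Single genes show the contrast. Atp5mpl, a small membrane subunit of ATP synthase chosen for mention after its values were seen, read 10.27, 10.26, 11.29 and 10.22 on the vehicle arrays at 6 h, an excess of 1.01 for array 3. Ndufa4 read 10.27, 10.19, 11.27 and 10.26 there, and 10.06 to 10.43 on all celastrol and later vehicle arrays. Uqcrb, which encodes a small subunit of complex III, read 12.90, 12.93, 13.48 and 12.83. In each of these array 3 was far above and the others lay close together. Cox7a1, the heart and muscle form of a complex IV subunit, was the single limited isoform highest on array 3 among all 23, with 8.53, 8.55, 9.18 and 8.63. Cox7b2, another limited isoform, read 5.92, 5.98, 6.22 and 5.84, so array 3 was the highest of that group.

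Some catalytic and core genes differed little on that array, although 15 of the 19 listed were highest there. The largest excess of the 19 was 0.42, for Cox5a, which is on the list without belonging to the catalytic core of complex IV. Atp5a1, which encodes the alpha subunit of the F1 head, read 12.48, 12.48, 12.42 and 12.48, and array 3 was the lowest of the group. Atp5b, the catalytic beta subunit, read 13.71, 13.67, 13.74 and 13.71. Ndufs7, which carries the last iron-sulfur cluster of complex I before ubiquinone, read 13.33, 13.35, 13.28 and 13.34. Sdha, the flavoprotein of complex II, read 12.38, 12.41, 12.47 and 12.41. Cox8b was 0.29 lower on this array than on the mean of the others, and Ndufa4l2 was 0.16 lower.

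**Figure D2:**
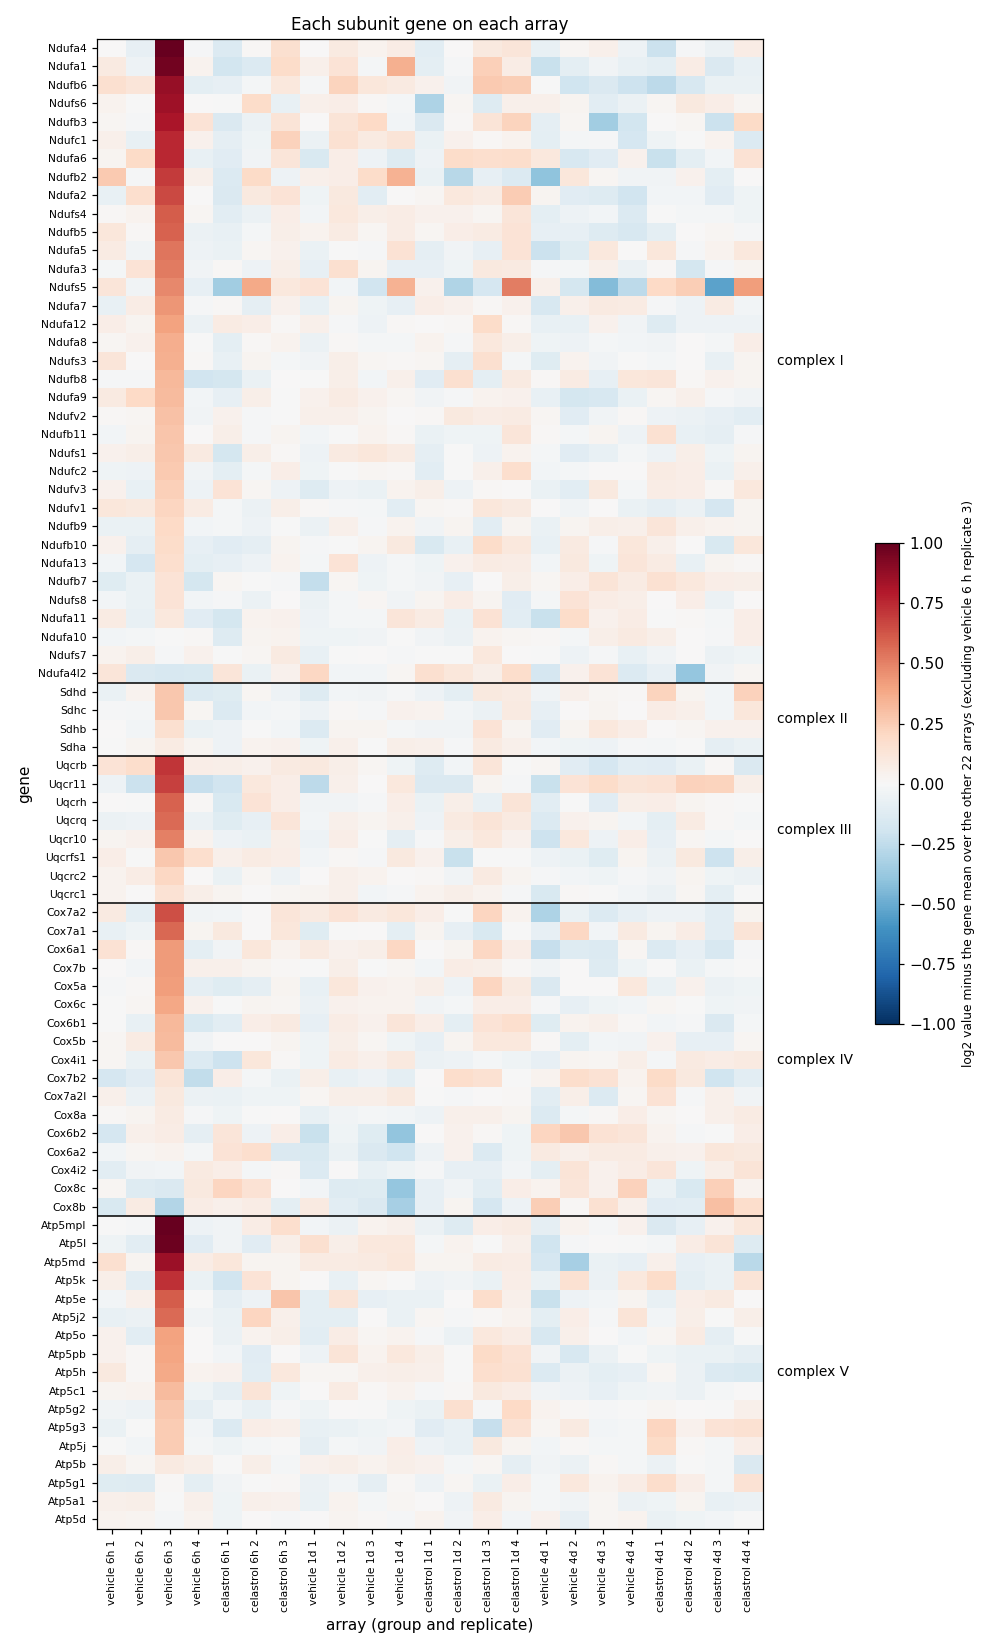
Log2 value of each of the 81 genes (rows, by complex) on each array (columns), minus the gene's mean over the 22 arrays other than vehicle array 3 at 6 h; red is higher, blue lower, on a scale from -1 to 1. A single column is red in all complexes, from 1.01 for Atp5mpl down to -0.29 for Cox8b. The F1 genes Atp5a1 and Atp5d are near 0 in that column.

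For 16 of the 81 genes more than 1 probe set names the gene alone, and the one with the highest mean was used. All 40 probe sets of these 16 genes read higher on vehicle array 3 than on the mean of the others, and 35 were highest there. The 24 that were not used had a median excess of 0.49. The 6 probe sets of Atp5l, a membrane subunit of ATP synthase, gave excesses between 0.86 and 0.99. The 3 of Atp5md, a small subunit found where ATP synthase forms dimers, gave 0.86, 0.96 and 0.95. Cox7a2l differed most between its probe sets, with 0.10 for the one used and 0.39 for the other. Probe sets of 1 gene may read the same transcripts or related copies, so they are no replicates.

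The median of that array over all genes was 8.65, its SD over genes 1.93 and the Prl level 6.72, each within the range of the other arrays. The deposited arrays were quantile-normalized, which draws their medians and SDs together. These values therefore cannot show that the array was otherwise like the others. The neuronal markers averaged 12.27, the astrocyte markers 11.45 and the oligodendrocyte markers 11.44, all within the range of the other arrays. The 7 measured microglial markers averaged 9.15, the highest of the 23 arrays, whose lowest was 8.90. The part of these values in the excess was not tested. Because 1 array carries this difference, most counts and medians that use the vehicle group at 6 h are given with and without it. So are most of the genes named there whose values it moves most. Given only with it are the counts of groups without overlap and the genes named by the F test of a time-dependent celastrol difference. The same holds for the unadjusted counts between 1 day and 6 h in vehicle mice. The median SD over the 81 genes in that group was 0.17 with the array and 0.05 without it, against 0.05 in vehicle mice at 1 day and 0.07 at 4 days.

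Promoter sequences show which of these genes hold letters known as motifs of the factors named above. RefSeq promoter windows on GRCm38.p6, of 300 bases each, were at hand for 66 of the 81 genes, as 71 windows. The letters GCGCATG, the core of an NRF1 site, were found on either strand in 18.3% of the 71 windows and in 3.91% of all 32851 windows. The letters CCGGAAG, as bound by GABP and other ETS factors, were found in 23.9% and 8.86%. AAGGTCA, the core of a site of the estrogen-related receptors, was found in 9.86% and 4.72%, GGGCGGG, as bound by SP factors, in 33.8% and 25.6%, and CCAAT, as bound by NF-Y, in 42.3% and 37.4%. A window with both the NRF1 core and the ETS letters was found for 6 genes, Ndufb6, Sdhb, Uqcr11, Cox6a1, Atp5k and Atp5l, 8.45% of the windows against 0.682% of all. These are matches of letters and are given as a description.

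The 250 bases before the start are shown for 3 of these 6 genes, from complexes I, IV and V, because each holds both motifs there. Capitals mark the NRF1 core (GCGCATG or its reverse complement) and the ETS letters (CCGGAAG or its reverse complement); in Cox6a1 the NRF1 core is matched on both strands at 1 overlapping place. The genes lie on the minus strand, and each sequence is read 5′ to 3′ along the gene. They are Ndufb6 at chr4:40279422-40279671, Cox6a1 at chr5:115348959-115349208 and Atp5l at chr9:44920743-44920992, whose excesses on the array that stood apart were 0.87, 0.43 and 0.98.
Ndufb6: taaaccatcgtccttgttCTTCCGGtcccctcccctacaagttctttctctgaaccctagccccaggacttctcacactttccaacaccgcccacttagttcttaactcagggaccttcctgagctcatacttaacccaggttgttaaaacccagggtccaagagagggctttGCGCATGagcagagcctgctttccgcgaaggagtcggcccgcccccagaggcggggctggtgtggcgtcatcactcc
Cox6a1: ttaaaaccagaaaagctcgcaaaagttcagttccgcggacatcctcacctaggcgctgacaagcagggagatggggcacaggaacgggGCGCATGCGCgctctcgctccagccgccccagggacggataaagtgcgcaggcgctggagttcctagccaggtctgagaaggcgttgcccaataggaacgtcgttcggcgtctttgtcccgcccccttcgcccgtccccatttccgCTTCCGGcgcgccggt
Atp5l: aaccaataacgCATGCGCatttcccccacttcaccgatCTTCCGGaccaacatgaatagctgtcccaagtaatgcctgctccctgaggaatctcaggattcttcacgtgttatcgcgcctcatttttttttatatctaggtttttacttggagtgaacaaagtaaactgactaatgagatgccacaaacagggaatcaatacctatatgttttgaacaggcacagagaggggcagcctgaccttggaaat

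The comparison of celastrol with vehicle at 6 h asks what the drug does to these genes soon after injection. With all arrays, 71 of the 81 genes (87.7%) were lower with celastrol, against 47.2% of all genes, with a median difference of -0.08, against 0.01 over all genes. None passed the test: limma called 0 of the 81 at an adjusted p under 0.05, as it called 0% of all genes, and the smallest adjusted p was 0.245. At an unadjusted p under 0.05, 9 of the 81 were lower and 0 higher, where 6.22% of all genes were lower and 8.56% higher. With vehicle array 3 left out, 39 of the 81 were lower and 42 higher, with a median of 0.0026, and 52% of all genes were lower. At the unadjusted threshold 1 was then lower (4.1% of all genes) and 3 higher (5.83%). The direction at 6 h rested on that array: 33 of the 71 genes lower with all arrays were higher without it. Leaving out another array also moved the count of 9: it was 16, 18 and 21 without vehicle array 1, 2 and 4 at 6 h, 1 without celastrol array 1 at 6 h, and 5 without vehicle array 3 at 1 day, vehicle array 3 at 4 days or celastrol array 2 at 4 days. The shares of all genes at that threshold in these fits are not given here.

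The 9 genes at the unadjusted threshold were Ndufv1, Ndufa9, Ndufs1, Ndufs3 and Ndufs4 of complex I, Sdhc of complex II, Uqcrc2 and Uqcrb of complex III and Atp5pb of complex V. Without vehicle array 3 their differences lay between -0.10 and -0.05, and 1 of the 9, Ndufv1, stayed under the unadjusted threshold. Ndufv1, which binds NADH and passes its electrons on through flavin, read 11.28, 11.26, 11.38 and 11.25 with vehicle and 11.15, 11.11 and 11.23 with celastrol. The groups did not overlap, which held for 2 of the 81 genes in this direction and 4.29% of all genes. Its difference was -0.13 ± 0.050 (SE; limma, adjusted p = 0.245), and -0.10 ± 0.049 without vehicle array 3 (adjusted p = 0.492).

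Sdhc, a membrane anchor of complex II, was the other gene without overlap, at 11.26, 11.25, 11.54 and 11.28 with vehicle and 11.13, 11.24 and 11.25 with celastrol. The difference was -0.13 ± 0.061 (SE; limma, adjusted p = 0.335), or -0.06 without vehicle array 3, and celastrol arrays 2 and 3 lay just below the vehicle arrays. Ndufs1, the large iron-sulfur subunit of complex I, read 10.74, 10.75, 10.96 and 10.79 with vehicle and 10.52, 10.75 and 10.71 with celastrol, so the groups overlapped. The difference was -0.15 ± 0.061 (SE; limma, adjusted p = 0.271), or -0.10 without vehicle array 3. Uqcrc2, a core subunit of complex III, read 12.68, 12.72, 12.86 and 12.65 with vehicle and 12.58, 12.67 and 12.60 with celastrol. Its difference was -0.11 ± 0.047 (SE; limma, adjusted p = 0.285), or -0.07 without vehicle array 3, and 1 celastrol array lay above 1 vehicle array.

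By complex, 32 of 35 genes of complex I, all 4 of complex II, all 8 of complex III, 11 of 17 of complex IV and 16 of 17 of complex V were lower at 6 h. The medians were -0.12, -0.06, -0.12, -0.05 and -0.08. With vehicle array 3 left out the counts were 19, 2, 5, 5 and 8, and the medians -0.0069, -0.0049, -0.01, 0.04 and 0.02. The largest difference with all arrays was that of Ndufa1, an accessory subunit of complex I named after its values were seen, at -0.30 ± 0.160 (SE; limma, adjusted p = 0.372). Its vehicle values were 8.45, 8.31, 9.32 and 8.39, and its celastrol values 8.17, 8.22 and 8.54, and without vehicle array 3 the difference was -0.07. Among the genes that were higher, Cox8c, a testis form of a complex IV subunit, gave 0.16 ± 0.089, Ndufa4l2 0.12 and Atp5g1, a c ring gene, 0.08, none past the test. Leaving out vehicle array 3 gave 0.13, 0.09 and 0.11.

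**Figure D3:**
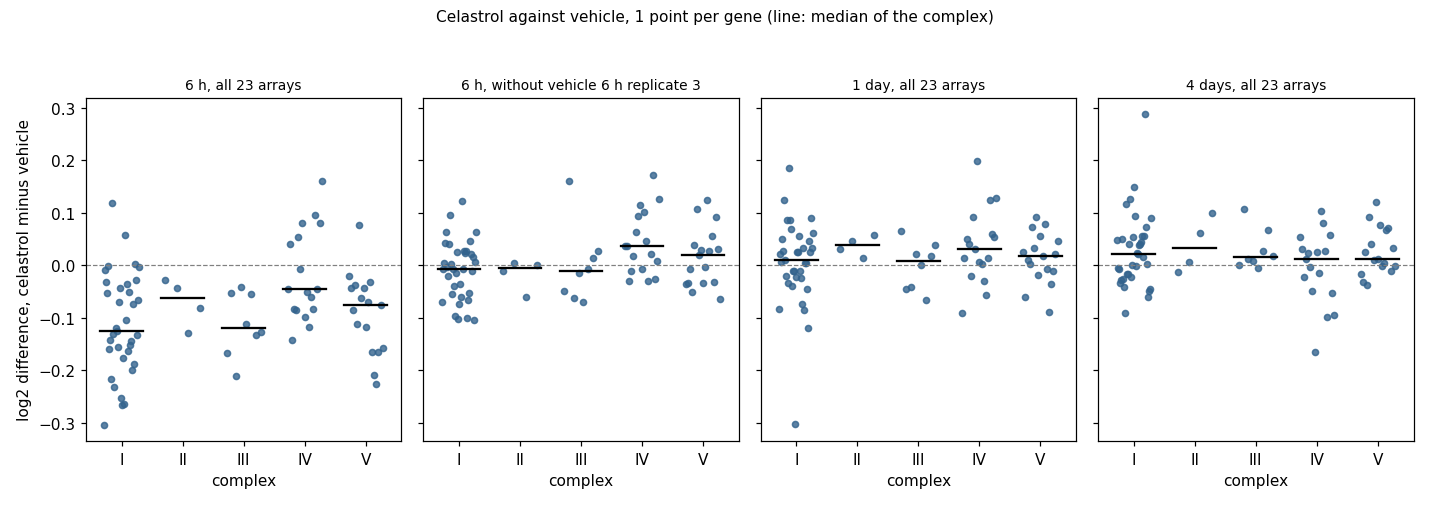
Log2 difference of celastrol minus vehicle (vertical axis) for each of the 81 genes, by complex (horizontal axis), at 6 h with all 23 arrays, at 6 h without vehicle array 3, at 1 day and at 4 days; lines are medians of the complex. The points of complexes I and III lie mostly below 0 at 6 h (medians of -0.12), and around 0 once that array is left out.

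After 1 day, the 81 genes as a group were split: 27 were lower and 54 higher with celastrol, with a median of 0.02, where 54.1% of all genes were higher, with a median of 0.01. limma called 0 of the 81 (0.016% of all genes), with a smallest adjusted p of 0.231. At an unadjusted p under 0.05, 1 was lower (4.19% of all genes) and 1 higher (8.31%). Cox6b2, the testis form of a complex IV subunit that joins the monomers, read 7.30, 7.47, 7.40 and 7.13 with vehicle and 7.52, 7.56, 7.53 and 7.48 with celastrol. Every celastrol array was above the highest vehicle array, as in 2 of the 81 genes and 6.44% of all genes. The difference was 0.20 ± 0.064 (SE; limma, adjusted p = 0.231).

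Ndufb2, an accessory subunit in the membrane arm of complex I, read 8.97, 8.98, 9.10 and 9.27 with vehicle and 8.85, 8.64, 8.84 and 8.78 with celastrol. All celastrol arrays lay below all vehicle arrays, as in 3 of the 81 genes and 4.56% of all genes. The difference was -0.30 ± 0.121 (SE; limma, adjusted p = 0.319), a level 0.811 times that of vehicle. Its difference averaged over the 3 times was -0.17 ± 0.072 (SE; limma, adjusted p = 0.32), or -0.12 ± 0.058 without vehicle array 3 at 6 h (adjusted p = 0.404). Ndufv1 read 11.19, 11.18, 11.28 and 11.26 with celastrol at 1 day, against 11.18, 11.16, 11.15 and 11.07 with vehicle, a difference of 0.09 ± 0.046 (SE; limma, adjusted p = 0.442). All 4 genes of complex II were higher, with a median of 0.04, and the medians of complexes I, III, IV and V were 0.01, 0.0087, 0.03 and 0.02.

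After 4 days, 31 of the 81 genes were lower and 50 higher, with a median of 0.02, where 49.7% of all genes were higher. limma called 0 of the 81, as it called 0% of all genes, and the smallest adjusted p was 0.555. Again 1 gene was lower (4.57% of all genes) and 1 higher (2.73%) at an unadjusted p under 0.05. Cox6b2 was now lower, at 7.55, 7.51, 7.52 and 7.59 with celastrol against 7.73, 7.79, 7.67 and 7.65, a difference of -0.17 ± 0.064 (SE; limma, adjusted p = 0.555). Its groups did not overlap at 1 day or at 4 days, in opposite directions, as in 1 of the 81 genes lower at 4 days and 1.63% of all genes. The celastrol level was nearly the same at 1 day and 4 days while the vehicle level differed. Ndufa9, which sits where the arms of complex I meet, was higher, at 11.20, 11.24, 11.17 and 11.14 against 11.11, 11.01, 11.02 and 11.12, a difference of 0.13 ± 0.056 (SE; limma, adjusted p = 0.636), and its groups did not overlap, as in 1.87% of all genes. Among the higher genes, those with the smallest p of their complex included Sdhd, a membrane anchor of complex II (0.10), Uqcr11, a small subunit of complex III (0.11), and Atp5g3 of the c ring (0.12).

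Averaged over the 3 times, 57 of the 81 genes were lower, against 46.7% of all genes, with a median of -0.02. limma called 0 of them (0% of all genes), and 1, Ndufb2, was under 0.05 unadjusted, where 5.25% of all genes were lower at that threshold. Without vehicle array 3 at 6 h, 24 were lower and 57 higher, with a median of 0.01, and 48.3% of all genes were lower. The F test of a celastrol difference that depends on time called 0 of the 81, against 0.0588% of all genes. At an unadjusted p under 0.05 it named 3 of the 81 (13% of all genes): Cox6b2 (limma, adjusted p = 0.14), Ndufa9 (adjusted p = 0.215) and Ndufv1 (adjusted p = 0.245). The comparisons at the 3 times have separate control arrays.

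None of the 19 subunits listed as catalytic and core passed the test for celastrol. At 6 h their differences ran from -0.15 for Ndufs1 to 0.0025 for Ndufs7, and without vehicle array 3 from -0.10 for Ndufv1 to 0.04 for Cox4i1. They ran from -0.09 for Cox4i1 to 0.09 for Ndufv1 at 1 day, and from -0.06 for Ndufs8, an iron-sulfur subunit of complex I, to 0.10 for Sdhd at 4 days. The 5 core genes Ndufv1, Ndufs1, Ndufs3, Sdhc and Uqcrc2 are among the 9 under the unadjusted threshold at 6 h. Atp5b read 13.71, 13.67, 13.74 and 13.71 with vehicle and 13.65, 13.71 and 13.63 with celastrol at 6 h, and its differences were -0.04, -0.06 and -0.03 at 6 h, 1 day and 4 days. Those of Atp5a1 were -0.02, 0.02 and -0.02, and those of Sdha -0.03, 0.03 and -0.01. The groups overlapped at each time for these 3 genes. Uqcrc1, a core subunit of complex III, gave -0.04, 0.02 and 0.01, and Uqcrfs1, its iron-sulfur protein, -0.06, -0.07 and 0.03. The complex IV subunits Cox5a and Cox5b gave -0.14 and -0.08 at 6 h, and -0.03 and -0.01 without vehicle array 3. Cox4i1, the general form of another, turned from -0.05 to 0.04 when that array was left out.

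The isoforms of limited tissue distribution differed in sign between the times. Of 8 such genes (Cox4i2, Cox6a2, Cox6b2, Cox7a1, Cox7b2, Cox8b, Cox8c and Ndufa4l2), grouped after earlier results were known, 7 were higher with celastrol at 6 h, 8 at 1 day and 1 at 4 days. Their median differences were 0.08, 0.09 and -0.07, and none passed the test. With vehicle array 3 left out all 8 were higher at 6 h, with a median of 0.10. The median of olfactory and vomeronasal receptor genes, which the brain hardly uses and which serve as a gauge of low signal, is given beside them. It lay between 5.56 and 5.61 with vehicle and 5.62 and 5.70 with celastrol at 6 h, 5.54 and 5.61 against 5.57 and 5.65 at 1 day, and 5.68 and 5.70 against 5.61 and 5.74 at 4 days. Its part in these differences was not tested. The general partners of these isoforms gave at 6 h -0.05 for Cox4i1, -0.08 for Cox6a1, -0.01 for Cox6b1, -0.12 for Cox7a2, -0.04 for Cox8a and -0.22 for Ndufa4. Without vehicle array 3 they gave 0.04, 0.02, 0.09, 0.05, -0.03 and 0.04, so all but Cox8a changed sign. At 1 day and 4 days the partners lay between -0.09 and 0.10.

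The comparison of times asks how these genes differed between vehicle groups without the drug. The limma F test called 6 of the 81 genes, against 8.83% of all genes: Cox6b2 (adjusted p = 0.00567), Ndufa9 (0.0153), Cox6a2 (0.0371), Uqcrb (0.0382), Ndufv1 (0.0453) and Atp5md (0.0458). Their share of the 81 genes is near the background. Without vehicle array 3 at 6 h it called 8, against 8.12% of all genes. Without 1 array of the later vehicle groups it called fewer: 3, 3, 2 and 2 without arrays 1 to 4 at 1 day, and 3, 1, 1 and 2 without arrays 1 to 4 at 4 days. The shares of all genes called in those fits are not given here, so these lower counts are not a result about the subunit genes. In celastrol mice the F test called 0 of the 81 (0.246% of all genes), with a smallest adjusted p of 0.234 and 5 under 0.05 unadjusted (16.4% of all genes). The difference in time course between treatments is what the F test above addressed, and it called none.

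From 6 h to 4 days in vehicle mice, 63 of the 81 genes were lower, where 37.9% of all genes were, with a median of -0.10 against 0.04 over all genes. limma called 3 (3.91% of all genes), all of which fell: Ndufa9, Uqcrb and Atp5md. That share of the 81 genes is near the background, as is the share called without vehicle array 3 at 6 h. These genes are described as single genes. At an unadjusted p under 0.05, 30 were lower (9.03% of all genes) and 4 higher (14.9%). With vehicle array 3 at 6 h left out, 46 were lower (39.7% of all genes) with a median of -0.03, and 1 was called (1.09% of all genes), Ndufa9, with 12 lower (6.66%) and 7 higher (9.86%) at the unadjusted threshold. The count called was 7 and 8 without vehicle arrays 2 and 4 at 6 h, 0 without vehicle array 2 at 4 days and 1 without vehicle array 3 at 4 days. These 4 counts are given without the shares of all genes and show only how far single arrays moved them.

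Ndufa9 read 11.27, 11.38, 11.50 and 11.15 at 6 h, 11.23, 11.26, 11.23 and 11.20 at 1 day, and 11.11, 11.01, 11.02 and 11.12 at 4 days. All arrays at 4 days lay below all earlier ones. Between 6 h and 4 days the groups did not overlap in 14 of the 81 genes that were lower, and in 4.93% of all genes. It fell by 0.26 ± 0.056 on the log2 scale from 6 h to 4 days (SE; limma, adjusted p = 0.0144), and by 0.21 ± 0.049 without array 3 at 6 h (adjusted p = 0.0461). Without vehicle array 2 at 4 days the adjusted p was 0.0515. Uqcrb read 12.86, 12.82, 12.78 and 12.72 at 1 day and 12.78, 12.65, 12.60 and 12.66 at 4 days, after the 6 h values given above. It fell by 0.36 ± 0.093 from 6 h (SE; limma, adjusted p = 0.0335). That difference was -0.22 without array 3 at 6 h (adjusted p = 0.0607), and the adjusted p was 0.0771, 0.0828 and 0.0552 without arrays 2, 3 and 4 at 4 days.

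Atp5md read 12.74, 12.61, 13.44 and 12.66 at 6 h, 12.66, 12.66, 12.67 and 12.69 at 1 day, and 12.42, 12.25, 12.52 and 12.50 at 4 days. The first 2 times were alike apart from array 3 at 6 h, and every array at 4 days was lower. It fell by 0.44 ± 0.116 from 6 h to 4 days (SE; limma, adjusted p = 0.0376), and the difference was -0.25 without array 3 at 6 h (adjusted p = 0.0579). The adjusted p was 0.0658, 0.106 and 0.0632 without arrays 1, 2 and 3 at 4 days. The other probe sets of Atp5md gave differences of -0.59 and -0.50. In celastrol mice the gene read 12.70, 12.61 and 12.61 at 6 h, 12.61, 12.61, 12.66 and 12.66 at 1 day, and 12.63, 12.50, 12.52 and 12.32 at 4 days.

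From 1 day to 4 days in vehicle mice, limma called 3 of the 81 genes (11.8% of all genes), all isoforms of complex IV with limited tissue distribution, and all rose. That share of the 81 genes is below the background. The groups did not overlap in 3 of the 81 genes that were higher, and in 13.2% of all genes. Cox6b2 read 7.73, 7.79, 7.67 and 7.65 at 4 days, above all arrays of the 2 earlier vehicle groups, and rose by 0.38 ± 0.064 (SE; limma, adjusted p = 0.002), a 1.30-fold change. Cox6a2 read 8.89, 8.97, 8.89 and 8.84 at 1 day and 9.13, 9.09, 9.12 and 9.12 at 4 days, and rose by 0.22 ± 0.055 (adjusted p = 0.0153 by limma, and 0.0547 without array 4 at 1 day). Cox8c read 7.56, 7.46, 7.47 and 7.20 at 1 day and 7.62, 7.71, 7.64 and 7.82 at 4 days, and rose by 0.27 ± 0.082 (SE; limma, adjusted p = 0.0333). For Cox8c the limma adjusted p was 0.0501 to 0.133 when any of 6 arrays was left out: vehicle arrays 2, 3 and 4 at 1 day and at 4 days.

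**Figure D4:**
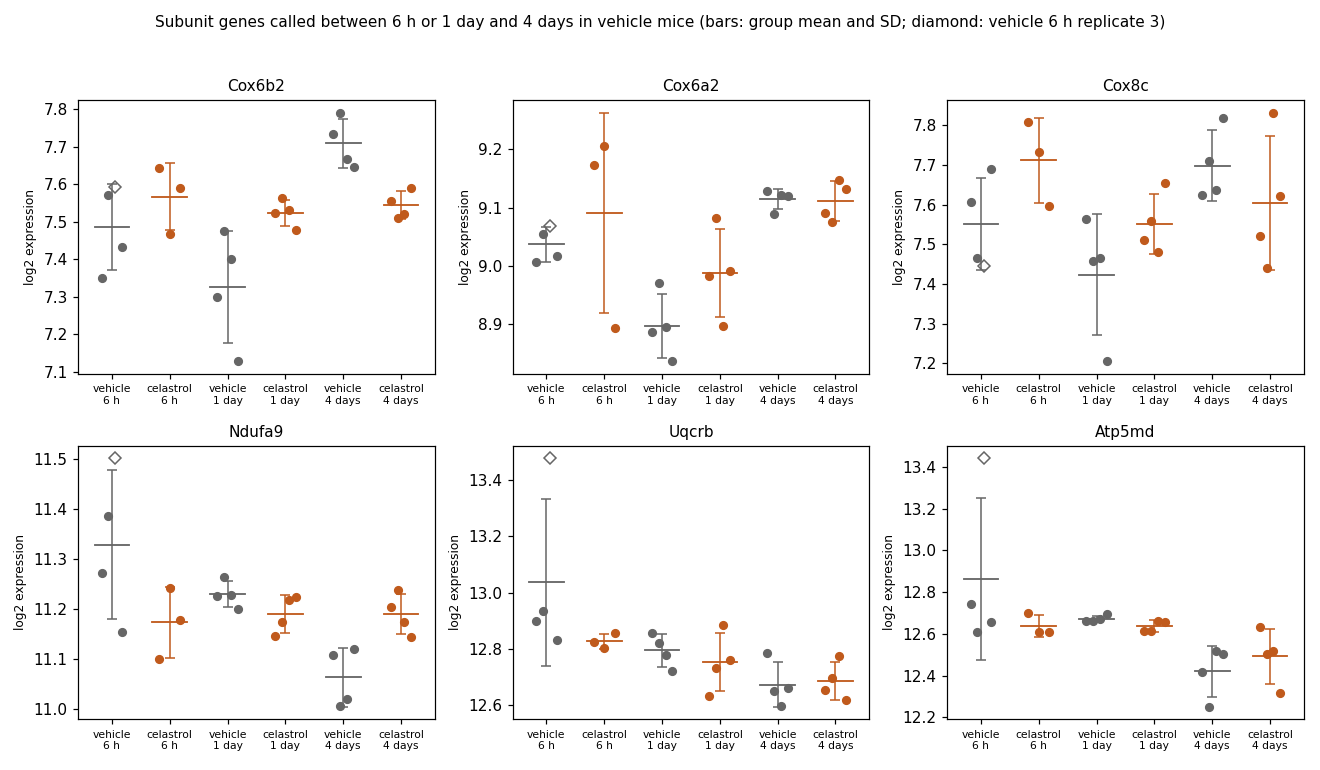
Log2 expression (vertical axis) of the 6 genes called between 6 h and 4 days or between 1 day and 4 days in vehicle mice, on each array by group (horizontal axis; grey vehicle, orange celastrol), with group means and SD; the diamond is vehicle array 3 at 6 h. Cox6b2, Cox6a2 and Cox8c rise from 1 day to 4 days with vehicle, by 0.38, 0.22 and 0.27, and Ndufa9, Uqcrb and Atp5md are lowest at 4 days with vehicle.

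At the same time the low-signal gauge and the spread of the arrays moved in vehicle mice. The median of the receptor genes was 5.54 to 5.61 at 1 day and 5.68 to 5.70 at 4 days, and the SD over all genes went from 1.93 to 1.96 at 1 day to 1.89 to 1.91 at 4 days. With the array SD as a covariate, the differences from 1 day to 4 days were 0.30 for Cox6b2, 0.07 for Cox6a2 and 0.06 for Cox8c, with limma adjusted p of 0.305, 0.793 and 0.899. With it, those from 6 h to 4 days were -0.22 for Ndufa9, -0.34 for Uqcrb and -0.35 for Atp5md, with adjusted p of 0.18, 0.236 and 0.303. In vehicle mice every array SD at 4 days lay below those at 6 h and 1 day. This covariate therefore largely overlaps with time, and the higher adjusted p values cannot tell the 2 apart.

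Without vehicle array 3 at 6 h, limma called 10 of the 81 genes between 1 day and 4 days in vehicle mice (14.5% of all genes). That share of the 81 genes is no higher than the share of all genes. Cox6b2, Cox6a2 and Cox8c rose, and 7 fell: Cox7a2 (-0.26), Atp5md (-0.25), Ndufb6 (-0.24), Cox6a1 (-0.22), Ndufb5 (-0.17), Ndufa9 (-0.17) and Ndufs4 (-0.13). Cox7a2 and Cox6a1 are the general forms of complex IV subunits. In this fit Cox6a1 and its limited partner Cox6a2 differed in sign. With all arrays and the array SD as a covariate, the rise of Cox6a2 shrank as given above, and the value for Cox6a1 is not given here. Without vehicle array 4 at 1 day the count was 1, and the share of all genes called in that fit is not given here. Between 1 day and 6 h, 72 of the 81 vehicle differences were below 0 (54.1% of all genes), and 36 were without array 3 (54.6% of all genes). limma called 0 there (0% of all genes), with 6 lower (6.67%) and 0 higher (4.02%) unadjusted.

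In celastrol mice none of the 81 genes passed the limma test between any 2 times. From 1 day to 4 days, 8 were lower (4.97% of all genes) and 3 higher (10.1%) at an unadjusted p under 0.05, and 0.353% of all genes were called. The lower ones included Ndufa4l2 (-0.25), Ndufv1 (-0.13) and Ndufv2 (-0.14) of complex I and Cox6a1 (-0.17), and the higher ones Atp5g3 (0.21), Cox4i2 (0.12) and Cox6a2 (0.12). The smallest limma adjusted p was 0.165. Without vehicle array 3 at 6 h, which enters the shared estimate of spread, 13 were lower (5.86%) and 7 higher (12.1%), and the smallest adjusted p was 0.0537. From 6 h to 4 days it was 0.34, and from 6 h to 1 day 0.543, with 0.0749% and 0.0321% of all genes called.

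Genes that build, supply or regulate the chain were read from lists chosen with earlier results known. Of 44 measured assembly factors, which build the complexes, 36 were lower with celastrol at 6 h, with a median of -0.08, and 32 without vehicle array 3, with a median of -0.05. The 2 with the smallest p were Tmem126b (-0.26 ± 0.079) and Timmdc1 (-0.19 ± 0.057), both needed to assemble complex I (SE; limma, adjusted p = 0.182 for both). Without that array they were -0.18 and -0.13. Of 11 genes for nucleotide and phosphate exchange and uncoupling, 8 were lower both with and without the array, with Vdac2 (-0.15) and Vdac3 (-0.19), pores of the outer membrane, at the smallest p (limma, adjusted p = 0.193 and 0.228), or -0.14 and -0.10 without the array. Of 15 carriers and subunits outside the naming rule, 11 were lower with the array and 7 without it. Cycs, which encodes cytochrome c, gave -0.05, -0.06 and 0.03 at the 3 times, and 0.04 at 6 h without the array.

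Of 19 regulators of mitochondrial biogenesis, 12 were lower at 6 h both with and without the array. The mitochondrial transcription factors Tfb2m and Tfb1m gave -0.21 and -0.20 with it and -0.16 and -0.13 without it. At 1 day 13 of the 19 were lower, with a median of -0.05. Tfam, which packs and transcribes mitochondrial DNA, gave -0.15, -0.19 and -0.0019 at the 3 times, Ppargc1a -0.02, -0.07 and -0.0024, and Nrf1 -0.06, -0.05 and -0.0057. Without the array, Tfam gave -0.11, Ppargc1a -0.07 and Nrf1 -0.05 at 6 h. None of these listed genes passed the test at any time. On vehicle array 3 at 6 h, the median excess over the other arrays was 0.18 for the assembly factors, 0.12 for the carriers, 0.13 for the exchange genes and -0.01 for the regulators, each below the 0.32 of the subunits.

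The genes outside the 81 whose pattern was most like theirs were found by correlating each with the mean of the 81 over the 23 arrays, after subtracting group means. They were Mrps33, a mitochondrial ribosome subunit (Pearson r = 0.97), Slirp, which stabilises mitochondrial mRNA (0.96), Tomm7 and Timm8b, which take part in protein import (both 0.96), and Fabp5, a fatty acid carrier (0.96). The arrays share the 1 array that stood apart, on which these 5 genes were 0.51 to 1.10 above the others, and over the other 22 arrays the same r lay between 0.71 and 0.81. Over those 22 arrays alone, 5 other genes came first, a list added after the values were seen: Abt1 (0.88), Ak1, H2ax and Spcs1 (each 0.86) and Rpl27 (0.85). No p is given, since the genes were picked for this value.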

How the data were processed

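Hypothalamic RNA was measured on 23 whole-transcript arrays. The deposited log2 values were made by the authors with RMA, which corrects background, quantile-normalizes arrays and summarises probes, per the submitters' processing notes, so a shift shared by all genes cannot be seen. Of 23492 probe sets, the platform annotation gives 20228 with 1 gene, 1399 with several and 1865 with none. The one with the highest mean per gene was kept, leaving 18702 genes. Models with 6 group means over all arrays were fitted with limma 3.58.1 in R 4.3.3, with Benjamini-Hochberg adjustment over 18702 genes, after tests on simulated data.

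The members and lists were chosen with earlier results of these data known. Genes named are those past an adjusted p of 0.05, the smallest p per complex, direction and celastrol comparison, catalytic and core subunits, isoforms with their partners, and up to 2 per pathway list; all others, such as extremes on 1 array and promoter examples, were chosen after their values were seen. Alternatives changed the variance model, filter, scaling, weights, probe sets and arrays. The number of arrays limits the precision. Equal replicate numbers were not taken as pairs in the main models, and whether such samples share handling was not tested.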

Additional observations from a re-analysis of the deposited data

Results flagged for a closer look

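In 115 groups of 4 values, 13 had an array far from the other 3, with a gap to the nearest, as a share of the range, above Dixon's 95% critical value. Chance gives about 1 in 20 for independent groups picked without their values, which these are not: the means overlap, and some genes were chosen for their values on 1 array, so the flags describe and test nothing. In 11 of them the array was vehicle array 3 at 6 h, and it was high. The gap was 0.901 of the range for the mean of the 81 genes, 0.858 for complex I, 0.952 for complex III, 0.941 for complex IV and 0.927 for complex V. For single genes it was 0.926 for Ndufa4, 0.884 for Sdhc, 0.839 for Uqcrb, 0.849 for Cox7a1, 0.843 for Atp5md and 0.956 for Atp5mpl.

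The other 2 lay in other groups. Ndufs1 was low on vehicle array 1 at 1 day, at 10.64 against 10.79, 10.81 and 10.78, with a gap of 0.843 of the range. Cox4i1 was low on celastrol array 1 at 4 days, at 11.18 against 11.29, 11.28 and 11.29, with a gap of 0.849.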

How the results depend on the processing

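No subunit gene passed the limma test for celastrol at any time, averaged over times, or between times, under any setting tried or with any single array left out. The median difference at 6 h (-0.0811) was -0.178 to -0.0173 under the settings and -0.125 to 0.00259 with single arrays left out, above 0 only without vehicle array 3 at 6 h. The median at 4 days turned from 0.0159 to -0.00196 with the array SD as covariate. That of the mean of times turned from -0.0167 to 0.00137 with array weights and 0.000132 with the array SD, and was -0.0276 to 0.0109 with single arrays left out. The count of genes called for time in vehicle mice (6) became 1 with further quantile normalization, 0 with the array SD, 12 without the vehicle arrays with Prl above 9, 11 with every probe set and 1 to 9 with single arrays left out. From 6 h to 4 days (3), it became 5 with a variance trend and robust fit, 7 without the genes of lowest mean level, 1 with quantile normalization, 6 with arrays centred on their medians, 1 with weights, 0 with the array SD, 17 without the Prl arrays, 9 with every probe set and 0 to 8 with single arrays left out. From 1 day to 4 days (3), it became 1 without the genes of lowest mean level, 1 with quantile normalization, 10 with weights, 0 with the array SD, 6 with every probe set and 1 to 10 with single arrays left out. The count at an unadjusted p under 0.05 for celastrol at 6 h (9) became 0 with quantile normalization, 3 with centring, 2 with weights, 0 with the array SD, 42 without the Prl arrays, 0 with only the groups compared and 1 to 21 with single arrays left out. The shares of all genes under these settings are not given here, so the counts show how far results moved and are no result about the subunit genes. With every probe set, 16 of the genes enter with 40 probe sets in place of 1 each. Without the Prl arrays, the vehicle group at 6 h holds 2 arrays, 1 of them the array that stood apart. Apart from fewer genes or arrays in some settings, the cause was not tested. With a replicate block the counts were 5, 3, 3 and 9 and the 6 h median -0.0766, so the block changed no count by over 1.5 times. Of 55 same-numbered pairs, 9 correlated above 0.1 (-0.222 to 0.258), and differently numbered pairs were not correlated for comparison.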
